A study of Elaeis oleifera with 12 samples.

Results

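LOC105045276, annotated as flowering-promoting factor 1-like protein 1 (FPF1-like), was followed across the 4 groups of the study. It is 1 of the 29040 loci in the deposited tables and 1 of the 5 whose description contains flowering-promoting factor. It was picked because its level was known to fall between the pre-ripe (PR) and the ripe stage, so its own values are given as a description with no test. The other 4 loci were taken by their description alone.

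RNA was sequenced from pieces cut with a scalpel out of the fruit base so as to hold the abscission zone (AZ), the layer of cells between pedicel and mesocarp where a ripe oil palm fruit separates. The 4 groups were PR and ripe fruit of a palm that sheds its fruit (Sd, palm 28-7) and PR and ripe fruit of a non-shedding variant (NSd, palm 26-11), both untreated Elaeis oleifera of the same progeny, with no age given for the palms in the labels. Each group held 3 libraries, each made from about 50 AZ pieces and sampled from the fruit bunches of 1 palm. Each phenotype is thus represented by 1 individual, and palm and phenotype cannot be told apart. Per the paper, PR and ripe fruit came from different bunches of the whorl, so within a palm stage and bunch cannot be told apart. Replicates carry the numbers of the labels (1 to 3 for PR NSd, 4 to 6 for ripe NSd, 7 to 9 for PR Sd, 10 to 12 for ripe Sd), and p-values cover only the spread between samplings of a bunch.

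FPF1 was first described in mustard as a gene that is switched on in the shoot apical meristem when the plant is induced to flower. Overexpression in Arabidopsis brings flowering forward and changes the response to gibberellin, the growth hormone of stem elongation and floral induction. The family encodes small proteins with no known enzymatic activity, and rice members affect root growth and the elongation of internodes, so the name of the family does not restrict it to flowers.

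LOC105045276 stood higher in every PR library than in any ripe library, in both palms. In PR Sd it measured 16.4, 15.4 and 24.0 RPKM (reads per kilobase of transcript, scaled to the aligned reads of the library) in replicates 7, 8 and 9, and in ripe Sd 1.78, 1.76 and 4.46 RPKM in replicates 10, 11 and 12. In PR NSd it measured 16.4, 26.4 and 32.7 RPKM in replicates 1, 2 and 3, and in ripe NSd 4.83, 4.51 and 4.01 RPKM in replicates 4, 5 and 6. The lowest PR library (15.4 RPKM) lay well above the highest ripe library (4.83 RPKM). Of the 20495 loci that reached 1 RPKM in some library, 15.1% had the PR libraries above the ripe ones in Sd, 8.58% in NSd and 0.503% with all 6 PR libraries above all 6 ripe libraries, and this separation is part of what the locus was picked for. In bulk tissue, fewer cells of a type and less RNA per cell cannot be told apart.

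**Figure D1:**
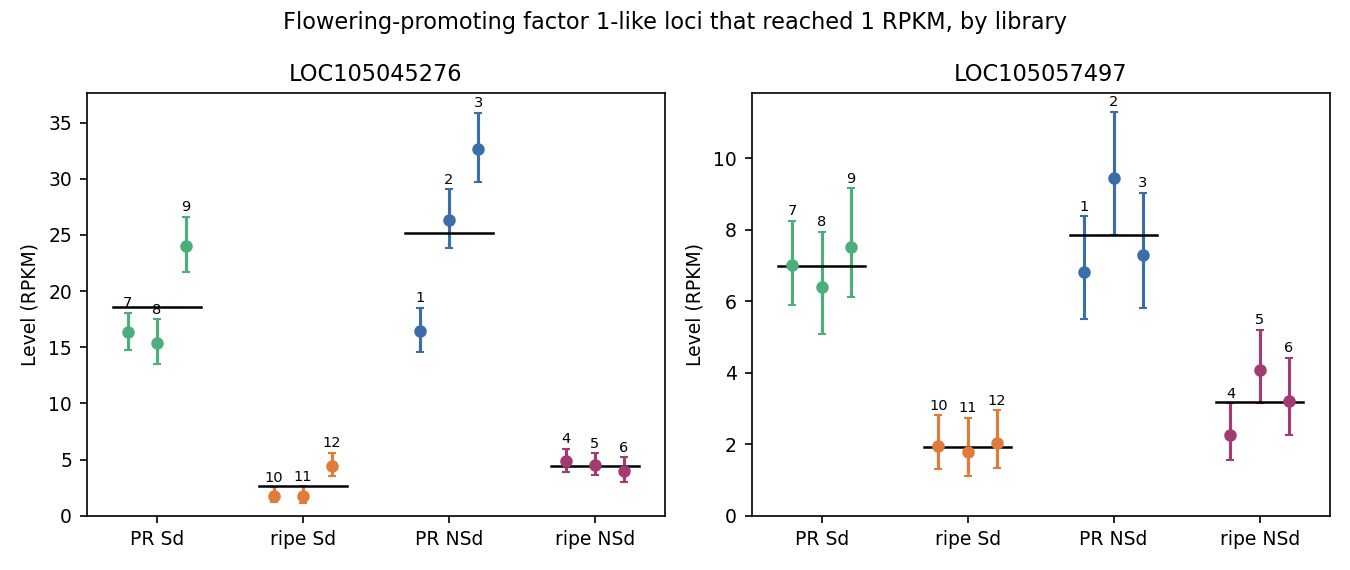
Level in RPKM (y axis, linear, each panel with its own scale from 0) of LOC105045276 (left) and LOC105057497 (right) in the 12 libraries, by group (x axis). Points are libraries with the replicate number above, bars are 95% Poisson intervals of the read count and black lines are group means. In the left panel all PR libraries lie at or above 15.4 RPKM and all ripe libraries at or below 4.83 RPKM.

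The values rest on whole reads. A transcript length of 721 bases was the smallest found at which the 12 values of LOC105045276 are whole read numbers. Under it they are 25 to 450 reads per library and 2500 in all, of which 1126 came from PR NSd, 1016 from PR Sd, 230 from ripe NSd and 128 from ripe Sd. A multiple of this length would give larger counts and a smaller counting error. Libraries of a group differed by more than counting error in 3 of the 4 groups. In ripe Sd the SD over libraries was 1.55 RPKM against 0.410 RPKM for counting alone, because replicate 12 (72 reads, 95% interval 3.49 to 5.62 RPKM) lay above replicate 10 (31 reads, 1.21 to 2.53 RPKM) and replicate 11 (25 reads, 1.14 to 2.60 RPKM). In PR Sd the SD was 4.74 RPKM against 1.03 RPKM, with replicate 9 above replicates 7 and 8, and in PR NSd it was 8.19 RPKM against 1.30 RPKM, with replicate 1 lowest. In ripe NSd the 3 libraries agreed within counting error (SD 0.413 RPKM against 0.513 RPKM). These Poisson intervals cover counting error only.

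Ripe fruit of the Sd palm had the lowest level and PR fruit of the NSd palm the highest. With the SD over 3 libraries, the group mean was 25.2 ± 8.19 RPKM for PR NSd and 18.6 ± 4.74 RPKM for PR Sd. It was 4.45 ± 0.413 RPKM for ripe NSd against 2.67 ± 1.55 RPKM for ripe Sd (n = 3 each). Within each stage the palms overlapped, since PR NSd replicate 1 and PR Sd replicate 7 both stood at 16.4 RPKM and ripe Sd replicate 12 lay inside the range of ripe NSd. Neighbours in this order within a stage thus overlapped in their libraries. The stages did not overlap, which is part of what the locus was picked for.

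In the Sd palm the mean fell 6.97-fold from PR to ripe. On the log2(RPKM + 1) scale, which understates the change of low loci, the difference was -2.47 (SE 0.29, 95% interval -3.10 to -1.84), the 7th lowest of the 20495 loci tested. Without ripe Sd replicate 12 it was -2.80. In the NSd palm the mean fell 5.65-fold, a difference of -2.21 (95% interval -2.85 to -1.58), which was the 138th lowest. Since the locus was picked for its fall, the ranks and the intervals of both falls are description only and favour a large size. The fall in NSd was 0.26 smaller on this scale, with a 95% interval from -0.64 to 1.15, and the sign turned to -0.09 after the libraries were rescaled by median-ratio size factors and to -0.01 without PR NSd replicate 1, so no difference between the palms in the size of the fall was resolved. At the ripe stage NSd was 1.67-fold above Sd, a difference of 0.65 (95% interval 0.01 to 1.28), and 0.97 without ripe Sd replicate 12. At PR it was 1.35-fold above Sd, a difference of 0.39 (95% interval -0.24 to 1.03), which became 0.78 after rescaling and 0.18 without PR NSd replicate 3.

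The libraries held 19090375 to 34004517 aligned reads, recovered from the RPKM steps, and a single read at LOC105045276 was worth 0.0408 to 0.0727 RPKM. The PR NSd libraries stood apart. Their correlation with libraries of the other groups over all loci (r on log2(RPKM + 1)) was 0.896 to 0.941. Pairs of libraries between the other groups had r of 0.940 to 0.980, and libraries of the same group 0.965 to 0.990. The median-ratio size factors of PR NSd were 0.726 to 0.878 against 0.969 to 1.14 elsewhere. The same shift, whose cause was not tested, showed in the median difference over all loci. That difference was 0.31 for ripe against PR in NSd and -0.35 for NSd against Sd at PR. For ripe against PR in Sd it was 0.03, and for NSd against Sd at ripe -0.06. LOC105045276 thus ran against the shift of all loci in the NSd palm. Rescaling the libraries by these factors, which brought the 4 medians to between -0.02 and 0.02, made its fall in NSd -2.55 and left its fall in Sd at -2.46.

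Among the detected loci of its own library, which does not depend on such scaling, LOC105045276 moved from the upper to the lower part of the range. Its percentile was 70.0 to 78.3 in PR Sd and 28.9 to 42.6 in ripe Sd. In NSd it was 76.6 to 84.1 at PR and 43.6 to 45.6 at ripe. The percentiles of the stages did not overlap in either palm, which is again part of what the locus was picked for. The share of all loci with such a separation of percentiles was not computed. On RPKM the PR libraries lay above the ripe ones at 15.1% of loci in Sd and 8.58% in NSd.

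LOC105057497 carries the same description, flowering-promoting factor 1-like protein 1, and was the only other family locus to reach 1 RPKM in any library. It measured 7.01, 6.39 and 7.52 RPKM in PR Sd and 1.95, 1.79 and 2.02 RPKM in ripe Sd. It measured 6.83, 9.46 and 7.29 RPKM in PR NSd and 2.24, 4.09 and 3.21 RPKM in ripe NSd. As at LOC105045276, the lowest PR library (6.39 RPKM) lay above the highest ripe library (4.09 RPKM). Of the loci that reached 1 RPKM in some library, 0.503% had all 6 PR libraries above all 6 ripe libraries. The counts were smaller, 21 to 142 reads per library and 829 in all under a length of 596 bases, again the smallest to give whole reads. Under this length the spread of libraries in PR Sd and ripe Sd was within counting error.

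This locus was not picked by its values and was tested in the fit over all loci, where a locus was called if its p, adjusted after Benjamini-Hochberg, was under 0.01 and its log2 difference beyond 1. LOC105057497 fell 3.63-fold from PR to ripe in Sd (log2 difference -1.45, SE 0.17, limma adjusted p = 0.00126, lower in 3 of 3 ripe libraries than in any PR library). Of all loci tested, 0.429% were called lower in that comparison, and 15.1% had every PR Sd library above every ripe Sd library. In NSd it fell 2.47-fold (-1.10, SE 0.17, limma adjusted p = 0.000392), where 3.07% of all loci were called lower. That call in NSd depended on single libraries, since the difference came to -0.97 without PR NSd replicate 2 and -0.93 without ripe NSd replicate 4, short of the limit of 1, with limma adjusted p of 0.00237 and 0.00147.

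Between palms LOC105057497 was not called at either stage. At ripe it was 1.66-fold higher in NSd (log2 difference 0.49, 95% interval 0.13 to 0.86, limma adjusted p = 0.0790), whereas the PR fruit differed by 0.14 (95% interval -0.23 to 0.51, limma adjusted p = 0.492). Rescaling raised the PR difference to 0.50 (limma adjusted p = 0.0326), still short of a call. The change with ripening differed between the palms by 0.35 (95% interval -0.17 to 0.87, limma adjusted p = 0.273), and by 0.03 after rescaling.

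**Figure D2:**
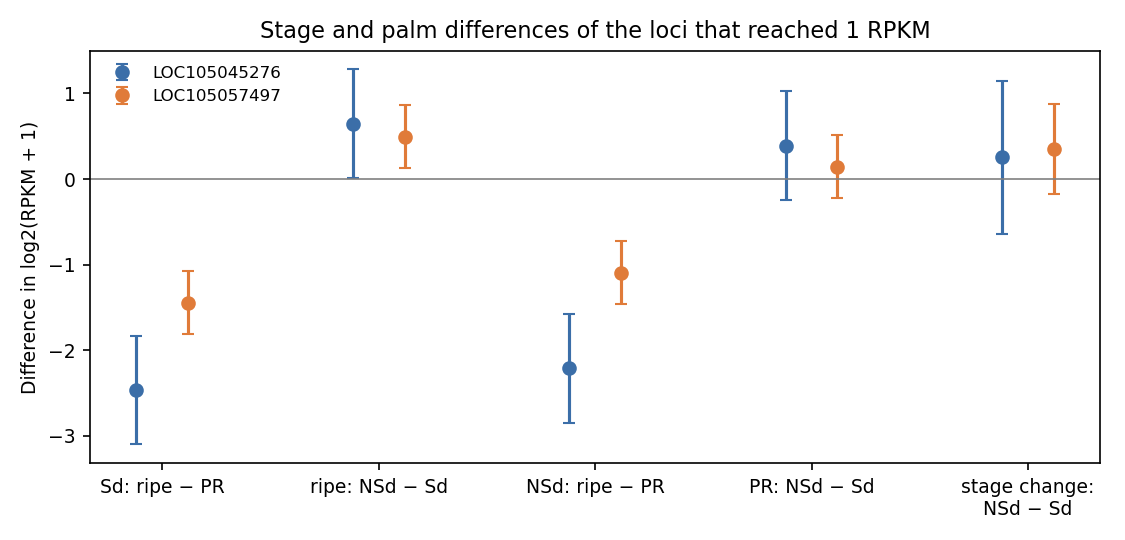
Differences in log2(RPKM + 1) (y axis) of LOC105045276 (blue) and LOC105057497 (orange) for ripe minus PR in each palm, NSd minus Sd at each stage, and the NSd stage change minus the Sd stage change (x axis). Points are estimates of the fit over 12 libraries and bars their 95% intervals. Both loci lie below 0 in both stage comparisons, at -2.47 and -1.45 in Sd and -2.21 and -1.10 in NSd.

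Per length, LOC105045276 was the more abundant of the pair before ripening and close to LOC105057497 afterwards. Its RPKM divided by that of LOC105057497 in the same library was 2.65 ± 0.478 in PR Sd and 1.37 ± 0.725 in ripe Sd (SD, n = 3). In NSd the ratio was 3.23 ± 1.10 at PR and 1.50 ± 0.569 at ripe. It was above 1 in 6 of 6 PR libraries, from 2.33 to 4.48, and in 4 of 6 ripe libraries, where the lowest was 0.915 and the highest lay below every PR ratio. LOC105045276 was picked for its fall with ripening, so a lower ratio at ripe follows in part from that choice and nothing is read from it. Reads of the E. oleifera fruit were aligned to transcripts of another species, E. guineensis, and how alike the pair is in sequence was not checked here, so that reads shared between them cannot be set apart.

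The other 3 loci of the family were at or near 0. LOC105039635 (protein 3) had 6 reads in all, 1 in PR NSd replicate 1, 2 in PR NSd replicate 3 and 3 in ripe NSd replicate 5 (0.0531, 0.126 and 0.133 RPKM), and none in the 6 Sd libraries. There the 95% Poisson interval of a count of 0 reaches 3.69 reads, or 0.130 to 0.225 RPKM per library. LOC105045655 (protein 3) had 1 read in PR Sd replicate 9 and 1 in ripe NSd replicate 6, under a length of 568 bases that is the smallest to give whole reads. LOC105057557 (protein 1) was listed at 0 in 12 of 12 libraries. None of these was tested, and a difference between groups was not detectable at this depth.

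LOC105057497 was among 17 loci called lower at ripe than at PR in both palms, 19.3% of the 88 called in Sd and 2.70% of the 630 in NSd, or 0.0829% of all loci tested. LOC105045276 is in this count too, which its selection fixed, and nothing is read from that. The stage comparisons of the palms share no library. The 17 also held LOC109505860 (glutaredoxin-C1, a redox enzyme family of plants), which went from 14.1 to 1.72 RPKM in Sd in group means, and from 16.2 to 18.3 RPKM in the PR libraries of NSd to a mean of 0.839 RPKM at ripe. LOC105056262 (RADIALIS-like 3, of a family of small MYB-type proteins) went from 29.6 to 5.76 and from 34.2 to 11.9 RPKM. LOC105058925 (ORR5, a response regulator of cytokinin signalling) went from 3.10 to 0.450 and from 6.10 to 0.796 RPKM. These loci were named for their place in this set after their values were seen.

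The loci most like LOC105045276 over the 12 libraries were ranked by Pearson r of log2(RPKM + 1) among 11556 loci with a described product whose mean reached 5 RPKM in some group. The highest was LOC105059859 (PHLOEM PROTEIN 2-LIKE A1, related to the lectins of phloem sieve tubes) with r = 0.963, whose group means were 60.0 RPKM in PR Sd, 13.6 in ripe Sd, 86.5 in PR NSd and 17.8 in ripe NSd. Then came LOC105049761 (ORR11, a cytokinin response regulator) with r = 0.957, LOC105052430 (stomatal closure-related actin-binding protein 1) with r = 0.955, LOC105052594 (subunit 9A of RNA polymerases) with r = 0.955 and LOC105049615 (basic leucine zipper and W2 domain-containing protein 2) with r = 0.947. LOC105057497 was 6th, with r = 0.946, and 15 loci had r above 0.9.

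These coefficients largely describe the PR and ripe difference that the loci share, and the 12 points fall into groups from 2 palms. Taken on deviations from the group means, r was 0.908 for LOC105052430, 0.771 for LOC105052594 and 0.740 for LOC105049761. It was 0.517 for LOC105059859, 0.238 for LOC105057497 and -0.002 for LOC105049615. The last of these differed from the rest in size too, since LOC105049615 was at 1858 RPKM in PR Sd and 1321 RPKM in ripe Sd. The named loci were selected on the same libraries, which favours a high value, whereas LOC105057497 was taken by its description, so these values are not compared.

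**Figure D3:**
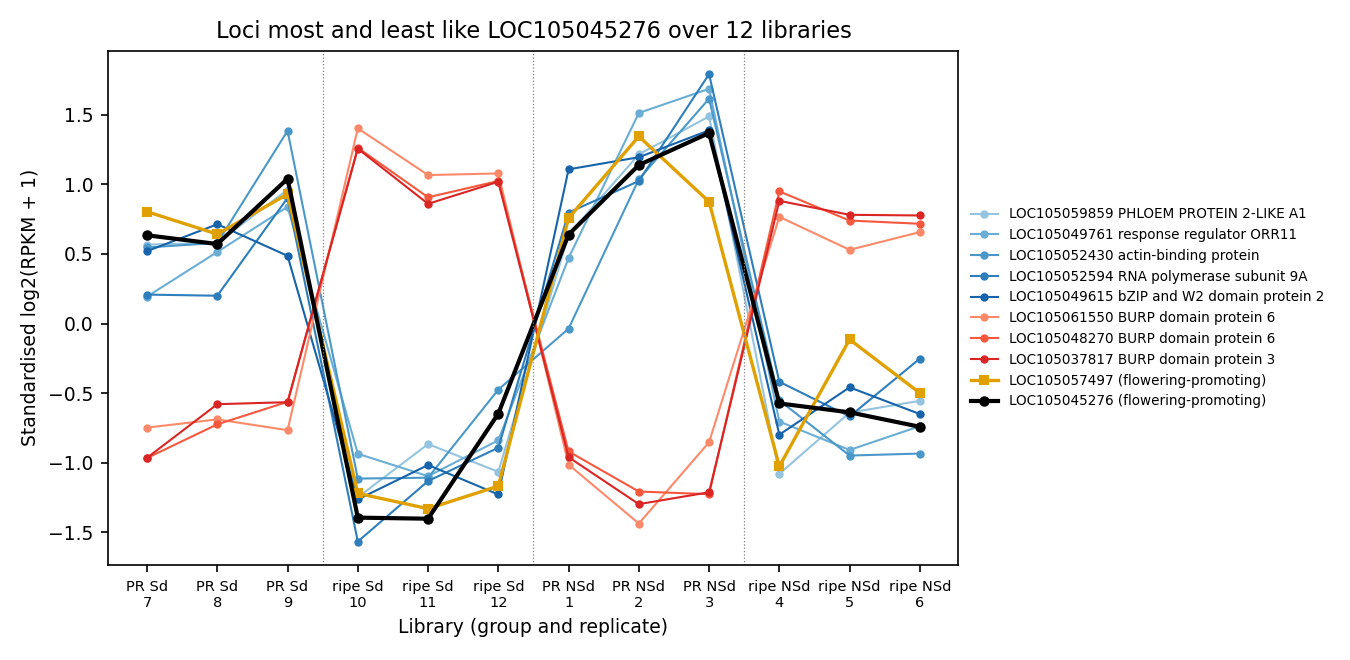
Standardised log2(RPKM + 1) (y axis, mean 0 and SD 1 over the libraries) in the 12 libraries (x axis, group and replicate) of LOC105045276 (black), LOC105057497 (yellow), the 5 described loci most like LOC105045276 (blue) and the 3 least like it (red). The BURP domain loci lie above 0 in the 6 ripe libraries and below 0 in the 6 PR libraries, the mirror of LOC105045276.

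The opposite pattern was led by proteins with a BURP domain, a plant-specific domain of secreted and cell wall proteins. LOC105061550 (BURP domain-containing protein 6) had r = -0.957 and went from 2.02 to 19.6 RPKM in Sd and from 1.15 to 11.0 RPKM in NSd. LOC105048270 (BURP domain-containing protein 6) had r = -0.954 and went from 55.2 to 522 RPKM in Sd and from 34.6 to 374 RPKM in NSd. LOC105037817 (BURP domain-containing protein 3) had r = -0.952 and went from 72.9 to 607 RPKM and from 41.4 to 450 RPKM. BURP loci with the same name may share reads.

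Other loci of the gibberellin and flowering pathways were set beside the family. Of 147 loci in 7 lists matched on their descriptions, 94 passed the 1 RPKM filter. From PR to ripe in Sd, 0 were called higher and 1 lower by limma, against 0.659% and 0.429% of all loci, with 13 higher and 13 lower at an unadjusted p under 0.05. In NSd 13 were called higher and 3 lower, against 7.77% and 3.07% of all loci. After rescaling 7 were called higher and 7 lower, where 896 of all 20454 loci tested were called higher and 1064 lower. The balance of directions in NSd thus depends on the scale, for the lists and for all loci. Between palms at the ripe stage 0 were called higher and 3 lower in NSd (5 and 28 at an unadjusted p under 0.05), against 0.815% and 1.63% of all loci, and at PR 4 higher and 23 lower, against 3.36% and 9.53%. The interaction term was called at 17 higher and 5 lower, against 9.19% and 4.07%. LOC105057497 was called lower with ripening on either scale in both palms.

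**Figure D4:**
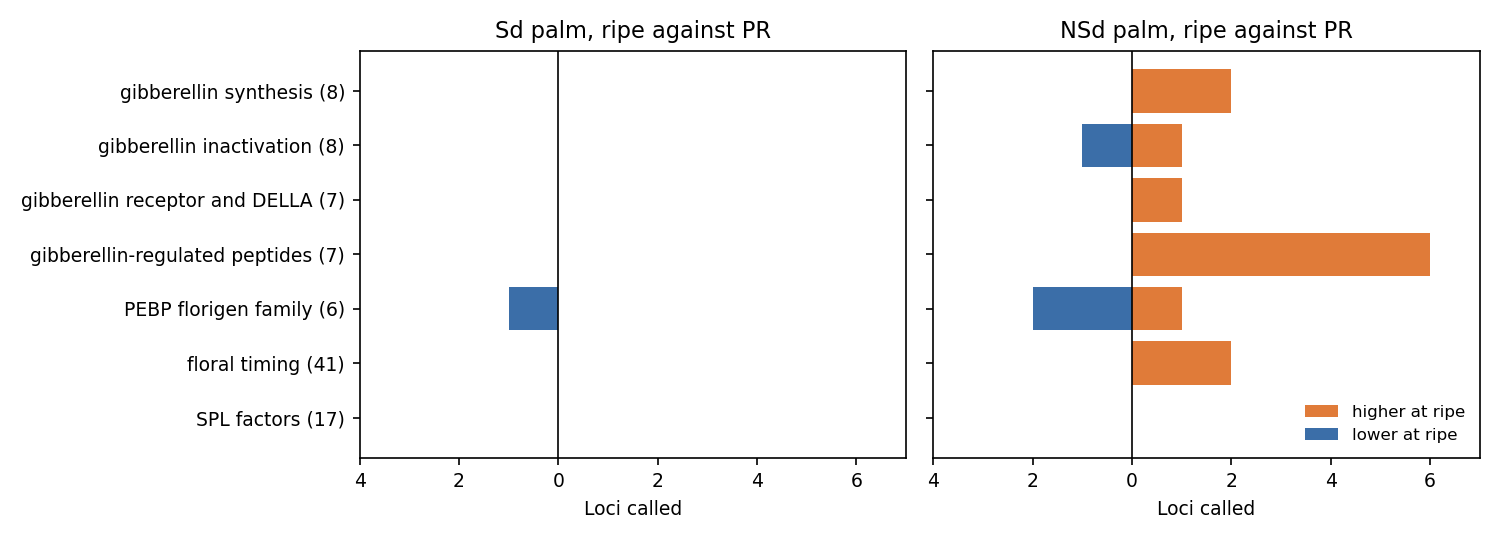
Number of loci called (x axis, lower at ripe to the left of 0 and higher to the right) in each list of the gibberellin and flowering pathways (y axis, number tested in parentheses), in the Sd palm (left) and the NSd palm (right), on deposited RPKM. In Sd 1 locus was called, a member of the florigen family, and in NSd 6 of 7 gibberellin-regulated peptides were called higher.

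Gibberellin-regulated peptides, small cysteine-rich secreted proteins of the GASA and snakin family, were the list with the largest share called with ripening in NSd. There 6 of 7 tested were called higher, against 7.77% of all loci (median log2 difference 1.80 against 0.31 over all loci), or 5 of 7 after rescaling. In Sd 0 of 7 were called by limma (2 higher and 1 lower at an unadjusted p under 0.05, median 0.57 against 0.03). LOC105046106 (gibberellin-regulated protein 12) went from 0.136 to 22.4 RPKM in NSd (log2 difference 4.28, limma adjusted p = 4.51e-07), while in Sd it was 23.1 RPKM at PR and 15.7 RPKM at ripe. LOC109504800 (protein 1) rose from 6.27 to 64.8 RPKM in NSd, LOC105056581 (protein 6) from 7.28 to 35.7 RPKM and LOC105035560 (protein 2) from 0.377 to 2.83 RPKM. In Sd they went from 36.8 to 57.6, from 5.55 to 16.1 and from 6.80 to 9.24 RPKM in the same order, without a call. The rise of LOC105056581 in Sd had a log2 difference of 1.38 (limma adjusted p = 0.0213). Its interaction term was 0.59 and not called (limma adjusted p = 0.311). At PR 4 of 7 were called lower in NSd than in Sd, against 9.53% of all loci, and after rescaling 3 were lower and 1 higher. LOC105045276 was not lower in NSd at PR, with 25.2 RPKM in PR NSd and 18.6 RPKM in PR Sd.

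Of 8 tested enzymes that make gibberellin, 2 were called higher with ripening in NSd (1 after rescaling), where 7.77% of all loci were, and 0 were called in Sd by limma (1 higher and 1 lower at an unadjusted p under 0.05). LOC105047970 (ent-kaurene oxidase 2, an early step of synthesis) went from 1.25 to 4.96 RPKM in NSd (log2 difference 1.39, limma adjusted p = 4.56e-05) and from 5.85 to 4.39 RPKM in Sd, where it was not called. LOC105040426, of the same name, was lower in NSd than in Sd at PR on deposited RPKM (6.68 against 18.2 RPKM, log2 difference -1.33), and at -0.96 after rescaling it missed the limit of 1. LOC105059898 (ent-kaur-16-ene synthase) was called higher in NSd at PR (7.72 against 1.02 RPKM), a call lost in 9 of 17 alternatives.

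Of the 2-beta-dioxygenases, which inactivate gibberellin, 1 of 8 was called lower and 1 higher with ripening in NSd, against 3.07% and 7.77% of all loci. LOC105046893 (gibberellin 2-beta-dioxygenase 8) fell from 14.5 to 1.64 RPKM in NSd (log2 difference -2.70, limma adjusted p = 0.00120), while in Sd it was 3.18 RPKM at PR and 12.5 RPKM at ripe. LOC105057308 (2-beta-dioxygenase 2) was called higher in NSd (9.96 to 32.8 RPKM), a call lost in 10 of 17 alternatives. Of 7 receptor and DELLA loci, the sensors and repressors of the response, 1 was called higher in NSd, against 7.77% of all loci. It was LOC105041587 (DELLA protein GAI, 1.58 to 4.25 RPKM), a call lost in 14 of 17 alternatives.

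In the family named after florigen, the flowering signal carried from leaf to apex, 6 loci were tested and they went different ways. The list was matched on family names and also held SELF-PRUNING, CEN-like and MOTHER of FT and TFL1 loci. LOC105048191 (HEADING DATE 3A, the rice name of a florigen) fell from 2.23 to 0.0173 RPKM in Sd (log2 difference -1.66, limma adjusted p = 0.00133), and without PR Sd replicate 8 the adjusted p was 0.0102. LOC105040569 (HEADING DATE 3A-like) was at 7.07 to 10.3 RPKM in PR NSd, at most 0.149 RPKM in PR Sd and listed at 0 in all 6 ripe libraries. LOC105040685 (HEADING DATE 3A) rose from 48.9 to 145 RPKM in NSd (log2 difference 1.51, limma adjusted p = 8.20e-05) and was 145 RPKM at PR and 112 RPKM at ripe in Sd, where it was not called. LOC105058700 (MOTHER of FT and TFL1 homolog 1) was lower in NSd than in Sd at PR (9.72 against 28.4 RPKM, log2 difference -1.48, limma adjusted p = 0.000745).

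Of 41 tested floral timing loci, 2 were called higher with ripening in NSd, against 7.77% of all loci (0 higher and 2 lower after rescaling). In Sd 0 were called by limma (3 higher and 4 lower at an unadjusted p under 0.05). At PR 9 were called lower and 1 higher in NSd than in Sd, against 9.53% and 3.36% of all loci. After rescaling 4 were lower and 1 higher at PR, where 939 of all 20454 loci tested were called lower and 1177 higher. LOC105040294 (GIGANTEA, a circadian clock protein that controls flowering time) was lower in NSd at PR, with 49.1 RPKM in PR NSd and 164 RPKM in PR Sd (log2 difference -1.72, limma adjusted p = 3.49e-05). LOC105033397 (FRIGIDA-like 4a), LOC105060757 (CONSTANS-LIKE 10) and LOC105060514 (CONSTANS-LIKE 9) were also lower in PR NSd, and of these only LOC105060757 was still called after rescaling. Of 17 squamosa promoter-binding-like factors, regulators of phase change, 0 were called with ripening in either palm by limma (6 higher and 2 lower in NSd at an unadjusted p under 0.05, and 4 higher and 3 lower in Sd), and after rescaling 2 of 16 were called lower in NSd.

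The dissected pieces can hold tissue next to the AZ, and the summed levels of its transcripts are given here. The summed level of 37 oil synthesis loci of the mesocarp (33 detected) was 2644 to 2773 RPKM in PR Sd and 1378 to 2381 in ripe Sd, and 1945 to 2170 in PR NSd and 2564 to 3793 in ripe NSd, lower at ripe in Sd and higher at ripe in NSd. The summed level of 25 meristem loci (22 detected) was 445 to 465 RPKM in PR Sd, 411 to 416 in ripe Sd, 259 to 298 in PR NSd and 408 to 438 in ripe NSd. Lignin and vascular loci (32 of 40 detected) stood at 799 to 832, 817 to 948, 420 to 516 and 642 to 762 RPKM in the same order of groups, and photosynthesis loci (22 of 22 detected) at 71.1 to 93.3, 108 to 189, 30.4 to 44.3 and 79.3 to 91.5 RPKM. The list of 58 loci with polygalacturonase in their description held 5 inhibitors, which were summed apart after this was seen. The other 53, the pectin-cutting enzymes (41 detected), stood at 184 to 265, 322 to 535, 187 to 236 and 308 to 634 RPKM, and the 5 inhibitors at 42.0 to 71.5, 56.4 to 117, 198 to 275 and 70.6 to 118 RPKM. The part of these tissues in the fall of LOC105045276 was not tested.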

How the data were processed

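Per the labels and the study's methods, the authors trimmed single reads (bcl2fastq 2.20.0.422, FastQC), aligned them with BWA-MEM to the E. guineensis transcriptome, counted them with SAMtools, merged the transcripts of a locus and deposited RPKM, 1 file per library; DESeq, DESeq2 and HOMER are named as further tools of the authors. In each file 1 row named no locus and was left out. Aligned reads per library and reads per family locus were recovered from the steps of the RPKM values (relative tolerance 1e-06), and totals were 19090375 to 34004517. Reads per family locus rest on the smallest length that gives whole reads. The 4 comparisons and the interaction were fitted on log2(RPKM + 1) with limma 3.58.1 (R 4.3.3, mean-variance trend, all 12 libraries), on 20495 loci (a minimum of 1 RPKM in any library), with Benjamini-Hochberg adjustment. A call needed an adjusted p under 0.01 and a log2 difference beyond 1. A count test was not run because the values are RPKM. The fit was tested on simulated data. Poisson intervals are exact (95%). Alternatives were no filter, a pseudocount of 0.1, no trend, RPKM rescaled by median ratios, only the compared groups, other limits and leaving out libraries. The family was named in full. The 5 loci most and 3 least like LOC105045276 and up to 4 called loci per list, by smallest p, were named by rule. The locus and the lists were chosen with earlier results of these data known. Tables and plots used Python 3.11.15, pandas 2.3.3, scipy 1.17.1 and matplotlib 3.10.9.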

Additional observations from a re-analysis of the deposited data

Results flagged for a closer look

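The change with ripening differed between the palms at 16 named loci of the gibberellin and flowering lists. This was judged by the interaction term of limma (NSd change minus Sd change in log2(RPKM + 1), adjusted p under 0.01 and difference beyond 1). These loci were named because they were called in some comparison, so their number is not set against the share of all loci. Of the 94 list loci tested, 17 were called upwards and 5 downwards, against 9.19% and 4.07% of all loci. The median difference over all loci was 0.30. Neither LOC105045276 nor LOC105057497 was among the 16. In synthesis and inactivation of gibberellin the difference was 1.11 at LOC105040426, 1.73 at LOC105047970 and -4.46 at LOC105046893. Among gibberellin-regulated peptides it was 4.81 at LOC105046106, 1.07 at LOC105035560 and 2.72 at LOC109504800. In the florigen family it was -3.21 at LOC105040569, which was listed at 0 in the ripe libraries, so that its size depends on the pseudocount, 1.87 at LOC105040685 and 1.51 at LOC105048191. Among floral timing loci it was 1.49 at LOC105040294, 1.42 at LOC105033397 and 1.23 at LOC105060757. Among squamosa promoter-binding-like factors it was 1.43 at LOC105061255, -1.41 at LOC105061372, 1.11 at LOC105042144 and -1.81 at LOC105053992. At LOC105053992 the palms differed at ripe (-1.70, a call lost in 8 of 18 alternatives) and by 0.11 at PR. At LOC105061372 they differed by -0.95 at ripe and 0.47 at PR. After rescaling, which mainly shifts the PR NSd libraries, 5 were no longer called, with differences of 0.80 at LOC105040426, 0.96 at LOC105035560, 2.44 at LOC109504800, 1.02 at LOC105060757 and 0.98 at LOC105042144. The limma adjusted p of LOC109504800 was then 0.0112. Over all alternatives the interaction call was lost in 12 of 16 at LOC105035560 and at LOC105060757 and in 11 of 16 at LOC105053992. It was lost in 10 of 16 at LOC105042144, in 9 of 16 at LOC109504800 and in at most 1 of 16 at the other named loci.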

How the results depend on the processing

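LOC105045276 kept the direction of both stage differences and of both palm differences under every alternative, from -2.86 to -2.28 for ripe against PR in Sd and from -2.55 to -2.01 in NSd. The calls of LOC105057497 held under every alternative in Sd (-1.81 to -1.40, limma adjusted p from 0.000616 to 0.00935), and in NSd they were lost without PR NSd replicate 2 or ripe NSd replicate 4 (leaving out each library gave -1.25 to -0.93). No paired analysis was possible because the groups share no replicate numbers.

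Counts of pathway loci called moved more. For ripe against PR in Sd, 1 became 2 with a pseudocount of 0.1, 2 after rescaling, 2 with only the compared groups and 10 at an adjusted p under 0.05 with no fold limit, and 0 to 2 when single libraries were left out (0 without PR Sd replicate 8, 2 without replicate 3, 4 or 6). For NSd against Sd at ripe, 3 became 6 with a pseudocount of 0.1, 15 at 0.05 with no fold limit, and 1 to 5 when single libraries were left out (1 without replicate 4, 5, 11 or 12, 5 without replicate 10). At 0.05 with no fold limit, 16 became 48 for ripe against PR in NSd, 27 became 60 for NSd against Sd at PR and 22 became 36 for the interaction. After rescaling 27 became 17 at PR (4 higher and 23 lower became 5 and 12), and the interaction went from 17 higher and 5 lower to 9 and 7. Over all loci the calls at PR went from 689 higher and 1953 lower to 1177 and 939. Those of the interaction went from 1884 higher and 835 lower to 1017 and 1265. Of the 5 loci most like LOC105045276, 2 stayed in the first 5 by Spearman rho and 2 without the PR NSd libraries. The cause of these shifts was not tested.

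Depth limits the 3 family loci near 0 and leaves 21 to 31 reads behind some ripe Sd values of LOC105045276 and LOC105057497. A single palm per phenotype limits every statement on NSd against Sd. Different bunches for the stages limit every statement on ripe against PR within a palm.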
